A study of Mus musculus with 8 samples.

Results

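Collagen chain genes were described in regenerating muscle of mice with a floxed or a wild-type gene for ST2, the receptor of interleukin-33, and a Cre driven in regulatory T cells. They were taken as every row of the deposited expression table that carried exactly 1 gene symbol of the form Col, a number, a and a number. These were 46 rows for 44 genes, of 19752 genes named by a single symbol in the table. A gene with several rows was represented by its brightest row. All 44 genes passed the filter on dim rows and were tested among 15007 genes.

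The study froze the tibialis anterior, a muscle at the front of the shin, of male C57BL/6 mice for 8 seconds with a metal probe cooled in liquid nitrogen. RNA of the whole muscle, taken 8 days later, was measured on the Mouse Gene 1.0 ST array of Affymetrix, 1 for each sample. The ST2FL group was 4 samples with Foxp3-Cre and a floxed ST2 allele, and the ST2WT group was 4 samples with Foxp3-Cre and wild-type ST2, so that both groups carried the Cre transgene. The mice were 10 weeks old by their labels and 2 months old by the text of the series. Foxp3 drives the Cre in regulatory T cells, which are a small part of whole muscle, and ST2 itself is not analysed here. The labels do not state that every sample had its own animal. The p-values therefore rest on the scatter of these samples alone, and that scatter may be technical.

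Values are log2 of the deposited intensity. They are comparable between samples for 1 gene, but not between genes, because each probeset has its own brightness. Median intensity per array lay between 185 and 189, and arrays of different groups correlated across genes as closely (median r = 0.991) as arrays of the same group (median r = 0.991). Muscle fibre markers were measured for 8 of 8 genes, with a summed level (log2 of the summed intensities) of 16.08 to 16.17 in ST2FL samples and 16.05 to 16.21 in ST2WT samples. A change in a bulk sample can come from fewer cells of a type or from less RNA per cell, and these cannot be told apart. In whole muscle, the collagen markers Col1a1, Col3a1 and Col15a1 were all among the brightest 25% of the genes tested.

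Collagens are extracellular matrix proteins, most of them secreted and a few anchored in the cell membrane, whose chains wind into a triple helix. Fibrillar collagens form the cable-like fibrils of connective tissue, basement membrane collagens form the sheet around each muscle fibre and vessel, and microfibrillar type VI collagen links that sheet to the surrounding fibrils. Fibril-associated collagens decorate the surface of fibrils. After muscle injury, fibroblast-like fibro-adipogenic progenitors lay down a transient collagen matrix that supports regeneration, and excess matrix is a hallmark of fibrosis.

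Promoter sequences of 35 of the 44 genes were in the RefSeq table used here (build GRCm38.p6). Upstream windows of 4 genes on different chromosomes are shown because they stand for the sets described below: Col1a2 and Col3a1 for fibrillar genes with a bright probeset, Col6a1 for type VI genes with a bright probeset and Col9a2 for a gene whose mean was lower in ST2FL. Each is the 150 bases just before the annotated start, with matches to promoter motifs on either strand in capitals. The first motif is the box named by its own letters, CCAAT. The second, which places the start of transcription in many genes, is TATAAA. The last is the binding motif of Sp1, known as the GC box and spelled GGGCGG.
Col1a2, chr6:4505468-4505617, plus strand: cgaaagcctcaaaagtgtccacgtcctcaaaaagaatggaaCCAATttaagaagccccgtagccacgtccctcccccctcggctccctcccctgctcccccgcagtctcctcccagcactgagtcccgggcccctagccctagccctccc
Col3a1, chr1:45311388-45311537, plus strand: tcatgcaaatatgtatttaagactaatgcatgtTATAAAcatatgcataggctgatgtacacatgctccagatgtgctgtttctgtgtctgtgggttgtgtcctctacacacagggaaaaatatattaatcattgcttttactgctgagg
Col6a1, chr10:76726045-76726194, minus strand: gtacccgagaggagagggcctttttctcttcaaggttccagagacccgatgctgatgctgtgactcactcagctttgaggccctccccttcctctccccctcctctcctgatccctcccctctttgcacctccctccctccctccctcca
Col9a2, chr4:121039416-121039565, plus strand: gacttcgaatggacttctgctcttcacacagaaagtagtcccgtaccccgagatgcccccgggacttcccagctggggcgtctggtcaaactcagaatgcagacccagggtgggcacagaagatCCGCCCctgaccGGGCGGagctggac

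The Col1a2 window held a CCAAT box that began 109 bases before the start, and the Col3a1 window a TATA box that began 117 bases before it. Neither motif was in the Col6a1 window, which held no GC box either. The Col9a2 window held a pair of GC boxes on opposite strands, which began 26 and 14 bases before the start. A CCAAT box was in the window of 8 of the 35 genes and in 24.5% of all 32851 promoter windows of that length. TATA boxes were found for 4 of the 35 genes and in 7.57% of all windows, and GC boxes for 19 of the 35 genes and in 28.6% of all windows. No motif overlapped another in the printed windows. A match is a description of the letters only.

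No collagen gene changed between the genotypes at a threshold of 0.05 after Benjamini-Hochberg adjustment over all genes tested. Limma called 0 of the 44 collagen genes, against a background of 0% of all 15007 genes, and the adjusted p of collagen genes lay between 0.912 and 0.988. At an unadjusted p under 0.05 there was 1 collagen gene, Col15a1, or 2.27% of the 44, against 3.79% of all genes (2.03% higher and 1.77% lower). In the deposited values Col15a1 was also the only collagen gene whose groups did not overlap (2.27% of the 44), with ST2FL higher. Of all genes, 1.14% did not overlap with ST2FL higher and 0.826% with ST2FL lower. The collagen share at an unadjusted p under 0.05 was thus below that of all genes, and the share without overlap was above that of all genes with ST2FL higher. Both collagen shares rest on Col15a1 alone.

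The differences were small and their intervals were narrow. Log2 differences, ST2FL minus ST2WT, ran from -0.18 for Col9a2 to 0.20 for Col12a1, or 0.881-fold to 1.15-fold. Standard errors from limma lay between 0.05 and 0.18. For all 44 genes the 95% interval of the difference, without adjustment for the number of genes, stayed within 1.5-fold in either direction. Over the 44 genes the lowest bound was 0.732-fold, for Col17a1, and the highest was 1.44-fold, for Col12a1. The filter on dim rows was a percentile of brightness and not a detection call. RMA, with which the deposited values were made, also compresses changes of dim probesets. Of the collagen genes, 10 lay in the dimmest bin, with mean log2 levels of 6.35 to 7.26. A further 12 lay in the next bin, with levels up to 8.145. Detection above background was not tested for any collagen gene. Narrow intervals of dim genes, in these bins or above them, therefore do not show that their expression was unchanged. The ST2FL mean was the higher one for 17 of the 44 genes, or 38.6%, against 48.8% of all genes tested, and the median difference was -0.04 against -0.0025 over all genes.

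**Figure D1:**
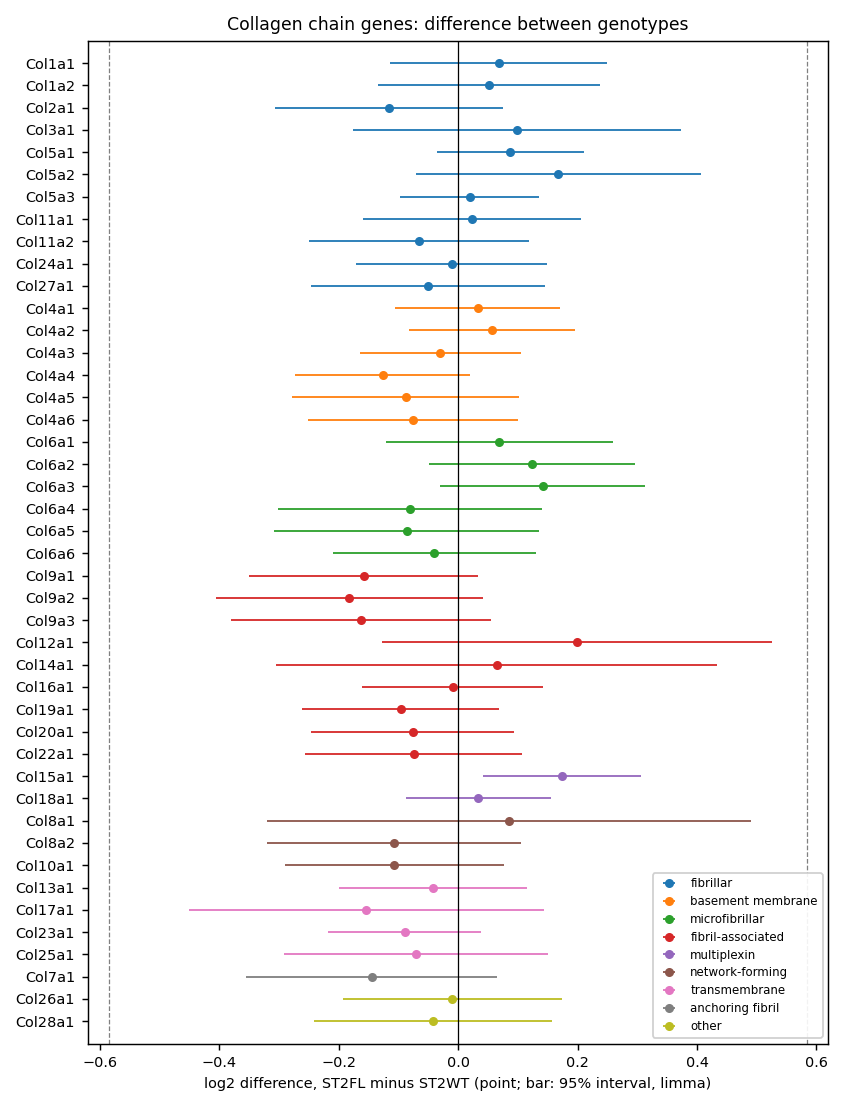
Log2 difference (ST2FL minus ST2WT, x axis) of each of the 44 collagen chain genes (rows, coloured by class). Points are differences and bars are unadjusted 95% intervals from limma with 4 samples a group; dashed lines mark a 1.5-fold difference. Only the bar of Col15a1 lies wholly on one side of 0, and every bar lies within the dashed lines.

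Fibrillar collagen genes had a higher mean in ST2FL for 7 of 11 members, with a median difference of 0.02. Col1a1 encodes the main chain of type I collagen, the most abundant fibril protein of scar and tendon. Its log2 level was 12.55, 12.52, 12.78 and 12.51 in ST2FL samples 1 to 4, against 12.37, 12.55, 12.52 and 12.66 in ST2WT samples 1 to 4. The groups overlapped, and ST2FL sample 3 alone was above every ST2WT sample. The difference was 0.07 (SE 0.08, 95% interval -0.11 to 0.25, limma adjusted p 0.919), or 1.05-fold. It was 0.0055 without ST2FL sample 3 and 0.11 without ST2WT sample 4. Its partner chain Col1a2 differed by 0.05 (SE 0.08), with ST2FL sample 3 highest and ST2WT sample 1 lowest of the 8 samples, as for Col1a1.

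Col3a1 encodes type III collagen, the fibril protein of early granulation tissue. Its log2 level was 11.66, 11.31, 11.48 and 11.06 in ST2FL samples 1 to 4, against 11.20, 11.49, 11.12 and 11.31 in ST2WT samples 1 to 4. The ST2FL samples held both the highest and the lowest of the 8 values, and the difference of 0.10 (SE 0.12, 95% interval -0.18 to 0.37, limma adjusted p 0.919) was smaller than the SD within ST2FL, 0.25. Without ST2FL sample 4 it was 0.20, and without ST2FL sample 1 it was 0.0042.

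Type V collagen starts the assembly of type I fibrils and sets their width. Col5a2 had log2 levels of 9.30, 9.44, 9.46 and 8.97 in ST2FL samples 1 to 4, against 9.06, 9.29, 9.04 and 9.12 in ST2WT samples 1 to 4. ST2FL samples 1 to 3 were above every ST2WT sample and ST2FL sample 4 was below every one, and the difference was 0.17 (SE 0.11, limma adjusted p 0.912). Col5a2 lies next to Col3a1 on chromosome 1. For Col5a1 the levels were 9.07, 9.05, 9.15 and 9.001 in ST2FL, against 8.97, 9.05, 8.93 and 8.97 in ST2WT, with a difference of 0.09 (SE 0.06, limma adjusted p 0.912). Only ST2WT sample 2 reached into the ST2FL range. The third chain, Col5a3, differed by 0.02 (SE 0.05), and by -0.01 with quantile normalization and -1e-04 with cyclic loess.

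Several of the remaining fibrillar genes are known from cartilage. Col2a1, the main fibril chain of cartilage, had log2 levels of 8.03, 8.09, 8.38 and 8.38 in ST2FL samples 1 to 4, against 8.30, 8.34, 8.33 and 8.37 in ST2WT samples. ST2FL samples 1 and 2 lay below every ST2WT sample and samples 3 and 4 above every one, so that the difference of -0.12 (SE 0.09, limma adjusted p 0.912) came with an SD of 0.19 in ST2FL against 0.03 in ST2WT. The type XI chains Col11a1 and Col11a2 differed by 0.02 (SE 0.08) and -0.07 (SE 0.08). The minor fibrillar chains Col24a1 and Col27a1 differed by -0.01 (SE 0.07) and -0.05 (SE 0.09).

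**Figure D2:**
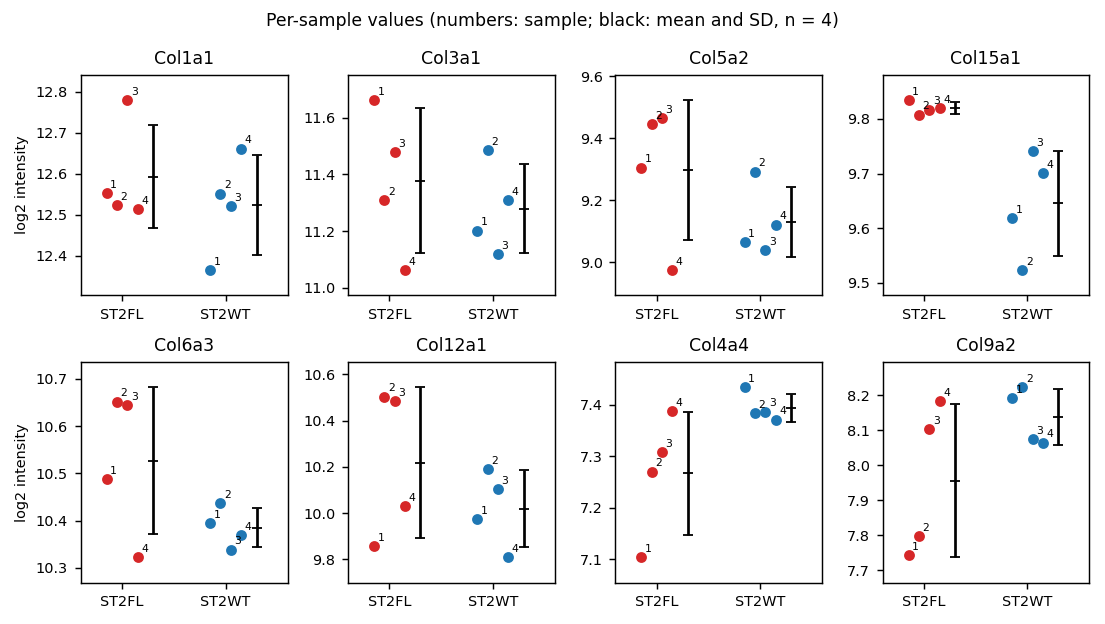
Log2 intensity (y axis, a separate scale for each gene) of 8 collagen chain genes in the 4 ST2FL and 4 ST2WT samples. Coloured points are samples with their numbers, and black marks are group means with SD (n = 4). The groups are apart for Col15a1 and overlap for the other 7 genes; ST2FL sample 4 has the lowest of the 8 values for Col3a1, Col5a2 and Col6a3.

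Basement membrane type IV genes had a higher mean in ST2FL for 2 of 6 members, with a median difference of -0.05. The higher ones were Col4a1 and Col4a2, whose chains make up most basement membranes and whose genes lie next to each other on chromosome 8. Col4a1 differed by 0.03 (SE 0.06), with 9.14 to 9.35 in ST2FL and 9.15 to 9.28 in ST2WT, and Col4a2 by 0.06 (SE 0.06), with 9.21 to 9.31 in ST2FL and 9.08 to 9.30 in ST2WT. The other 4 encode chains found in fewer tissues, among them the filter of the kidney, and each had a lower mean in ST2FL. Endothelial markers, measured for 8 of 8 genes, had summed log2 levels of 12.84 to 13.04 in ST2FL and 12.81 to 12.90 in ST2WT.

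Col4a4 had log2 levels of 7.10, 7.27, 7.31 and 7.39 in ST2FL samples 1 to 4, against 7.43, 7.38, 7.39 and 7.37 in ST2WT samples 1 to 4. ST2FL samples 1 to 3 lay below every ST2WT sample, and the difference was -0.13 (SE 0.07, 95% interval -0.27 to 0.02, limma adjusted p 0.912). With quantile and cyclic loess normalization it was -0.11 and -0.10, and the groups did not overlap, with ST2FL lower. For Col4a5 the levels were 6.90, 7.06, 7.21 and 7.30 in ST2FL, against 7.27, 7.20, 7.23 and 7.11 in ST2WT, with a difference of -0.09 (SE 0.09). Its neighbour on the X chromosome, Col4a6, had 6.55, 6.64, 6.72 and 6.88 in ST2FL, against 6.85, 6.85, 6.70 and 6.69 in ST2WT, with a difference of -0.07 (SE 0.08). In all of these genes ST2FL sample 1 was the lowest of the 8 samples. Col4a3, the head-to-head neighbour of Col4a4, differed by -0.03 (SE 0.06).

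Microfibrillar type VI genes were evenly divided in direction, with 3 of 6 higher in ST2FL and a median difference of 0.01. Col6a1, Col6a2 and Col6a3 encode the chains of the classical type VI molecule, whose loss in humans causes congenital muscle disease, and these were the higher ones. Col6a3 had log2 levels of 10.49, 10.65, 10.64 and 10.32 in ST2FL samples 1 to 4, against 10.39, 10.44, 10.34 and 10.37 in ST2WT samples 1 to 4. Col6a2 had 10.47, 10.34, 10.46 and 10.14 in ST2FL, against 10.27, 10.26, 10.20 and 10.18 in ST2WT. For both genes ST2FL samples 1 to 3 were above every ST2WT sample and ST2FL sample 4 was below every one. The differences were 0.14 for Col6a3 (SE 0.08, limma adjusted p 0.912), 0.12 for Col6a2 (SE 0.08, limma adjusted p 0.912) and 0.07 for Col6a1 (SE 0.09). Without ST2FL sample 4 they were 0.21 for Col6a3 and 0.20 for Col6a2.

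Col6a4, Col6a5 and Col6a6 encode chains that can take the place of the Col6a3 chain, and their genes lie side by side on chromosome 9. Col6a5 had log2 levels of 7.05, 6.97, 7.34 and 7.38 in ST2FL samples 1 to 4, against 7.24, 7.30, 7.16 and 7.40 in ST2WT samples. Its difference was -0.09 (SE 0.10, limma adjusted p 0.915), and its other, dimmer row differed by 0.13, so the rows disagreed in direction. The rows of Col6a6 disagreed as well, with -0.04 for the brighter row and 0.04 for the dimmer one. Col6a4 differed by -0.08 (SE 0.10).

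Fibril-associated genes had a higher mean in ST2FL for 2 of 9 members, with a median difference of -0.08. The higher ones were Col12a1 and Col14a1, whose chains bind the surface of type I fibrils in muscle sheaths and tendon, and they varied most among samples within this class. Col12a1 had log2 levels of 9.86, 10.50, 10.48 and 10.03 in ST2FL samples 1 to 4, against 9.97, 10.19, 10.10 and 9.81 in ST2WT samples 1 to 4. Col14a1 had 10.86, 10.50, 10.52 and 9.90 in ST2FL, against 10.45, 10.48, 10.19 and 10.39 in ST2WT. ST2FL samples 2 and 3 were the highest of the 8 samples for Col12a1, while the ST2FL samples held both extremes for Col14a1. The differences were 0.20 for Col12a1 (SE 0.15, 95% interval -0.13 to 0.53, limma adjusted p 0.912) and 0.07 for Col14a1 (SE 0.17, 95% interval -0.30 to 0.43). The difference of Col14a1 was -0.07 without ST2FL sample 1 and 0.25 without ST2FL sample 4.

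Markers of fibro-adipogenic progenitors, the main collagen-making cells of injured muscle, were highest in ST2FL sample 1 and lowest in ST2FL sample 4 of the ST2FL group, as were Col14a1 and Col3a1. Col12a1 was lowest in ST2FL sample 1, and Col1a1 and Col1a2 were highest in ST2FL sample 3. They were measured for 7 of 8 genes. Their mean, on the log2 scale and centred per gene, was 0.36, 0.03, 0.09 and -0.55 in ST2FL samples 1 to 4 and -0.03 to 0.08 in ST2WT samples, with summed log2 levels of 12.70 to 13.44 in ST2FL and 13.09 to 13.19 in ST2WT. The part of these cells in the collagen values was not tested. Of the 7 markers, 2 had a higher mean in ST2FL and 5 a lower one, with 0 at an unadjusted p under 0.05. Of each marker list, the tested genes with the smallest unadjusted p are named, here the actin-severing gene Gsn (-0.15, SE 0.09) and the surface antigen gene Cd34 (0.10, SE 0.11).

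Type IX collagen coats cartilage fibrils, and its genes Col9a1, Col9a2 and Col9a3 had the 3 lowest differences among the 44 genes. Col9a2 had log2 levels of 7.74, 7.80, 8.10 and 8.18 in ST2FL samples 1 to 4, against 8.19, 8.22, 8.07 and 8.06 in ST2WT samples 1 to 4. Col9a3 had 7.96, 7.99, 8.25 and 8.42 in ST2FL, against 8.37, 8.34, 8.33 and 8.24 in ST2WT, and Col9a1 had 7.10, 7.14, 7.27 and 7.41 in ST2FL, against 7.39, 7.57, 7.31 and 7.29 in ST2WT. ST2FL samples 1 and 2 were below every ST2WT sample for all of these genes, while ST2FL sample 4 lay within or above the ST2WT range. The differences were -0.18 for Col9a2 (SE 0.10), -0.16 for Col9a3 (SE 0.10) and -0.16 for Col9a1 (SE 0.09), each with a limma adjusted p of 0.912.

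Cartilage and bone markers, measured for 7 of 8 genes with 3 of them below the filter, had summed log2 levels of 10.70 to 10.90 in ST2FL and 10.55 to 11.07 in ST2WT. These sums rest mostly on Chad, at 9.97 to 10.21 in ST2FL and 9.65 to 10.58 in ST2WT, and say little about the other markers. Of the 4 tested, 1 had a higher mean in ST2FL, and the leading members were Matn3, a cartilage matrix gene (-0.15, SE 0.07), and Sox9, the master regulator of cartilage (0.07, SE 0.08). Among the other fibril-associated genes, Col22a1, which marks the junction of muscle and tendon, differed by -0.07 (SE 0.08), and Col19a1 by -0.10 (SE 0.07). Col20a1 and Col16a1 differed by -0.08 (SE 0.08) and -0.01 (SE 0.07). Tendon markers, measured for 6 of 6 genes, had 5 higher and 1 lower in ST2FL. They were led by the transcription factor gene Mkx (0.08, SE 0.08) and the tenocyte gene Tnmd (0.10, SE 0.14). Their summed log2 levels were 12.32 to 12.65 in ST2FL and 12.39 to 12.57 in ST2WT, and rest mostly on Thbs4 (11.60 to 11.89 and 11.62 to 11.86).

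Col15a1 was the collagen gene with the smallest SD within ST2FL. It encodes a multiplexin, a collagen of the zone between basement membrane and fibrils, and mice without it have a mild muscle disease. Its log2 level was 9.83, 9.81, 9.82 and 9.82 in ST2FL samples 1 to 4, against 9.62, 9.52, 9.74 and 9.70 in ST2WT samples 1 to 4. Every ST2FL sample was above every ST2WT sample, and the SD was 0.01 in ST2FL against 0.10 in ST2WT. The difference was 0.17 (SE 0.06, 95% interval 0.04 to 0.31, limma unadjusted p 0.0152, adjusted p 0.912), or 1.13-fold. With all 70 ways to assign the samples, the exact permutation test (two-sided) gave p = 0.0286, which is the smallest it can give. Every gene whose groups do not overlap gives this value, so it adds nothing to the absence of overlap. Without each sample in turn the difference stayed between 0.13 and 0.21, and with quantile and cyclic loess normalization it was 0.14 and 0.16. The other multiplexin, Col18a1, the source of endostatin, had 8.42, 8.45, 8.46 and 8.36 in ST2FL, against 8.38, 8.46, 8.32 and 8.39 in ST2WT, with a difference of 0.03 (SE 0.05).

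Among network-forming genes, Col8a1 had the largest SE of the 44 genes. Col8a1, whose chain forms hexagonal lattices beneath vessels and the cornea, had log2 levels of 9.12, 9.73, 10.03 and 9.59 in ST2FL samples 1 to 4, against 9.46, 9.22, 9.85 and 9.61 in ST2WT samples. The groups overlapped throughout, and the difference of 0.09 (SE 0.18) turned to -0.05 without ST2FL sample 3 and -0.02 without ST2WT sample 2. Col8a2, its partner chain, had 7.08, 6.91, 7.18 and 7.39 in ST2FL, against 7.31, 7.26, 7.30 and 7.13 in ST2WT (difference -0.11, SE 0.10). Col10a1, a marker of growth plate cartilage, had 6.45, 6.61, 6.60 and 6.83 in ST2FL, against 6.78, 6.73, 6.80 and 6.60 in ST2WT (difference -0.11, SE 0.08). ST2FL sample 4 was the highest of the 8 samples for both Col8a2 and Col10a1.

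Transmembrane collagen genes had a lower mean in ST2FL for 4 of 4 members. Col23a1 had log2 levels of 8.19, 8.34, 8.33 and 8.33 in ST2FL samples 1 to 4, against 8.40, 8.44, 8.37 and 8.33 in ST2WT samples, with a difference of -0.09 (SE 0.06, limma adjusted p 0.912). Col25a1, needed for motor nerves to reach muscle in mice, had 7.41, 7.49, 7.72 and 7.89 in ST2FL, against 7.74, 7.77, 7.69 and 7.61 in ST2WT (difference -0.07, SE 0.10). Col25a1 was lowest in ST2FL sample 1 and highest in ST2FL sample 4, so that ST2FL spanned the ST2WT range. Col13a1, a component of the neuromuscular junction, differed by -0.04 (SE 0.07).

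The collagens of skin attachment are Col17a1, in hemidesmosomes, and Col7a1, in anchoring fibrils. Col17a1 had log2 levels of 6.87, 6.997, 7.20 and 7.52 in ST2FL samples 1 to 4, against 7.33, 7.10, 7.26 and 7.50 in ST2WT samples 1 to 4. Col7a1 had 7.81, 7.91, 8.12 and 8.28 in ST2FL, against 8.25, 8.17, 8.14 and 8.14 in ST2WT. ST2FL sample 4 was the highest of the 8 samples for both genes, and ST2WT sample 4 came next for Col17a1 but not for Col7a1. The differences were -0.15 for Col17a1 (SE 0.13, limma adjusted p 0.912) and -0.14 for Col7a1 (SE 0.09, limma adjusted p 0.912), and -0.08 and -0.15 without ST2WT sample 4. Keratinocyte markers, measured for 10 of 12 genes with 4 of them below the filter, had a mean of 1.08 on the centred log2 scale in ST2WT sample 4, against -0.16 to -0.09 in the other ST2WT samples and -0.35 to 0.05 in ST2FL samples. Their summed log2 levels were 10.22 to 10.56 in ST2FL and 10.37 to 11.66 in ST2WT. All 6 tested had a lower mean in ST2FL, led by Krt77 (-0.62, SE 0.37) and Krt15 (-0.22, SE 0.14), both keratins of the epidermis and its appendages.

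Of the last pair, Col28a1 is known from peripheral nerve and Col26a1 from testis and ovary. Col28a1 had log2 levels of 6.82, 6.83, 7.01 and 7.17 in ST2FL samples 1 to 4, against 6.94, 7.16, 6.96 and 6.93 in ST2WT samples, and Col26a1 had 8.06, 8.05, 8.21 and 8.41 in ST2FL, against 8.12, 8.24, 8.17 and 8.24 in ST2WT. For both, ST2FL spanned the whole ST2WT range, with differences of -0.04 (SE 0.09) for Col28a1 and -0.01 (SE 0.08) for Col26a1. Schwann cell markers, measured for 6 of 8 genes with 1 below the filter, had summed log2 levels of 11.83 to 11.99 in ST2FL and 11.84 to 11.97 in ST2WT. These sums rest mostly on Pmp22, at 11.54 to 11.74 in ST2FL and 11.53 to 11.66 in ST2WT, and say little about the other markers. Of the 5 tested, 1 had a higher mean in ST2FL, and they were led by the myelin gene Mag (-0.22, SE 0.07, limma adjusted p 0.912) and the calcium-binding gene S100b (-0.12, SE 0.08).

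The direction of the 44 genes followed the brightness of their probesets, a pattern noticed after the values were seen and given here without a test. Of the 13 collagen genes among the brightest 25% of all genes tested, 13 had a higher mean in ST2FL, against 54.4% of the 3752 genes in that bin. They were Col1a1, Col1a2, Col3a1, Col4a1, Col4a2, Col5a2, Col6a1, Col6a2, Col6a3, Col8a1, Col12a1, Col14a1 and Col15a1, with differences of 0.03 to 0.20 and a median of 0.09. Of the other 31 collagen genes, 4 had a higher mean and 27 a lower one, with differences of -0.18 to 0.09 and a median of -0.07, against 47.0% higher of the 11255 other genes. With quantile and with cyclic loess normalization, 13 of the 13 were still higher and 28 of the 31 lower. Of all genes in the brightest 25%, 43.3% were then higher with quantile and 46.4% with cyclic loess normalization. Of the other genes tested, 46.3% and 49.7% were. Without each sample in turn, the higher ones were 11 to 13 of the 13 and 3 to 9 of the 31, with the 11 reached without ST2FL sample 3 and the 9 without ST2FL sample 1. Over all genes the shares then ran from 46.8% to 60.4% in the brightest 25% and from 44.2% to 49.5% in the rest.

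**Figure D3:**
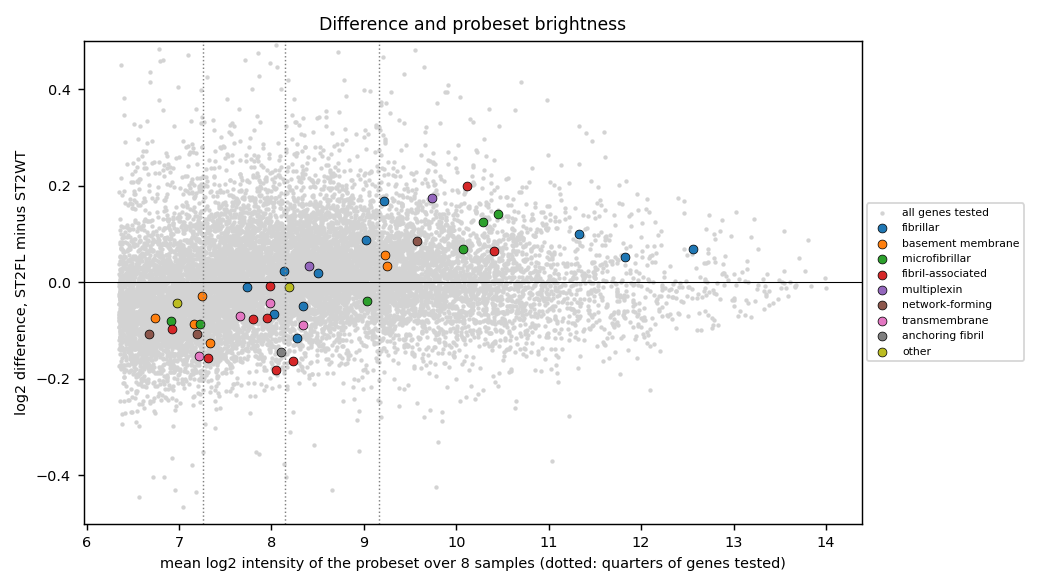
Log2 difference (ST2FL minus ST2WT, y axis) against the mean log2 intensity of the probeset over the 8 samples (x axis). Coloured points are the 44 collagen chain genes by class, grey points are all genes tested, and dotted lines cut the genes tested into 4 bins of equal size. The 13 collagen genes right of the last line all lie above 0, and 27 of the other 31 lie below it; 17 genes with a difference of over 0.5 either way are outside the axis.

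The samples of the ST2FL group spread in opposite directions for these sets. In the 13 genes of the brightest 25%, the median of the values centred per gene was 0.05, 0.08, 0.17 and -0.10 in ST2FL samples 1 to 4, against -0.11, -0.01, -0.06 and -0.02 in ST2WT samples 1 to 4. In the other 31 genes it was -0.17, -0.13, 0.02 and 0.14 in ST2FL, against 0.06, 0.06, 0.03 and -0.02 in ST2WT. ST2FL sample 4 was thus the lowest ST2FL sample in the bright set and the highest in the other. Of the 31 genes, ST2FL sample 1 was below every ST2WT sample for 25, ST2FL sample 2 for 22, and ST2FL sample 4 was above every ST2WT sample for 18.

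A smaller movement of the same kind was present across all genes of the dimmest bin. In the dimmest 25% of the genes tested, with mean log2 levels of 6.35 to 7.26, the median centred value of all 3752 genes was -0.12 in ST2FL sample 1 and 0.10 in ST2FL sample 4, and 28.2% of them had a higher mean in ST2FL. The 10 collagen genes of that bin had medians of -0.18 and 0.15 in those samples, and 0 of 10 had a higher mean. In the next bin, with levels up to 8.145, all genes had medians of 0.00 and 0.01 in those samples, while the 12 collagen genes there had -0.21 and 0.14 and 1 of 12 had a higher mean, against 50.1% of all genes of the bin. In the bin after that, with levels up to 9.16, all genes had medians of 0.06 and -0.05 in those samples, the 9 collagen genes had -0.13 and 0.02, and 3 of 9 had a higher mean, against 62.7% of all genes of the bin. The part of the dim-gene shift in the collagen values was not tested beyond the normalizations named.

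**Figure D4:**
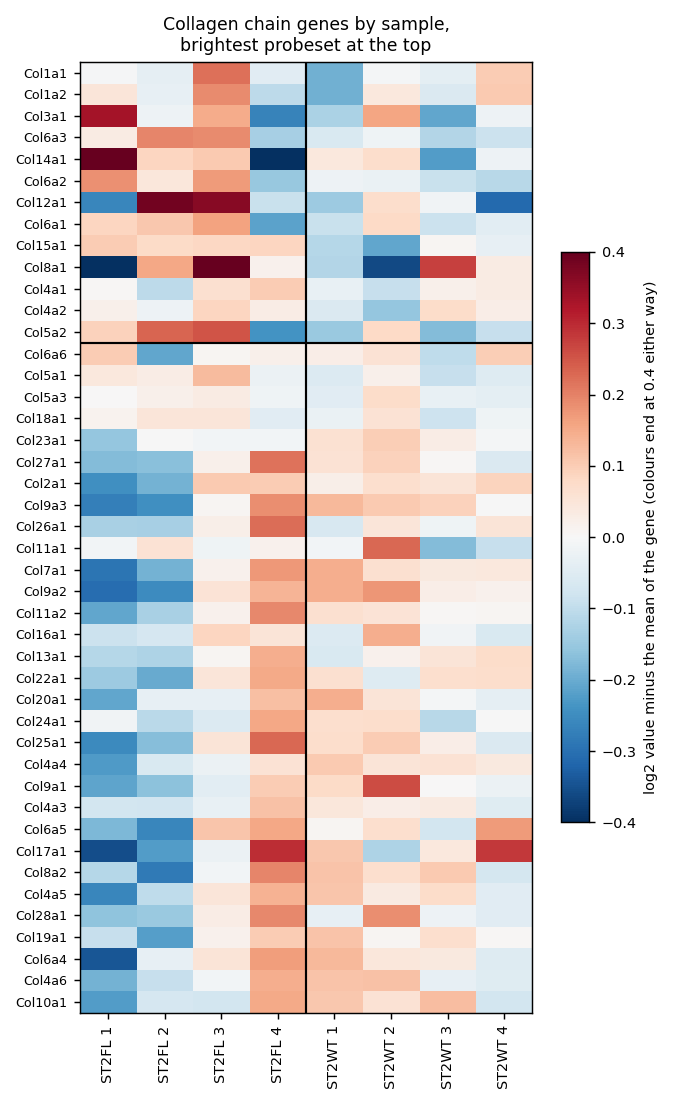
Log2 value minus the mean of the gene (colour, ending at 0.4 either way) for the 44 collagen chain genes (rows, brightest probeset at the top) in the 8 samples (columns). The horizontal line separates the 13 genes of the brightest 25% from the other 31. Below the line ST2FL samples 1 and 2 are mostly blue (low) and ST2FL sample 4 mostly red (high).

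**Figure D5:**
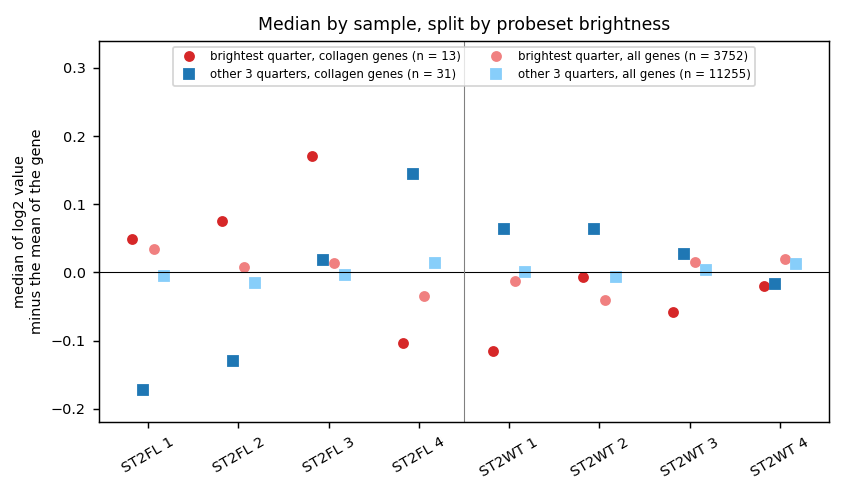
Median over genes of the log2 value minus the mean of the gene (y axis) in each sample (x axis), for collagen genes (dark symbols) and all genes (pale symbols) in the brightest 25% and in the rest of the genes tested. The collagen medians run from -0.17 to 0.17 in ST2FL samples and from -0.11 to 0.06 in ST2WT samples, and those of all genes stay between -0.04 and 0.03. The rest pools bins that moved in opposite directions. Medians of all genes in ST2FL samples 1 and 4 were -0.12 and 0.10 in the dimmest bin. With levels of 8.145 to 9.16 they were 0.06 and -0.05.

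Leaving out ST2FL sample 4 brought more collagen genes to an unadjusted p under 0.05, as it did for all genes. There were 14 of 44, or 31.8%, against 20.1% of all genes tested, in a comparison of 3 against 4 samples. Col5a2, Col6a1, Col6a2, Col6a3, Col14a1 and Col15a1 were higher in ST2FL, where 10.6% of all genes were, and Col4a4, Col7a1, Col8a2, Col9a1, Col9a2, Col9a3, Col10a1 and Col17a1 were lower, where 9.5% of all genes were. The smallest limma adjusted p among the 44 was then 0.148, for Col5a2, so that no collagen gene passed the threshold. Without ST2FL sample 1 there were 2 collagen genes (4.55%) at an unadjusted p under 0.05, against 3.84% of all genes. Leaving out any other single sample gave 1 collagen gene (2.27%), against 1.63% to 3.77% of all genes.

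Genes that make, cut, sense and break down collagen were read from lists of related genes, of which 64 were tested in 5 lists. Of these, 51 (79.7%) had a higher mean in ST2FL and 13 a lower one, against 48.8% higher of all genes. That share of all genes varied with brightness, at 28.2%, 50.1%, 62.7% and 54.4% from the dimmest to the brightest bin. The 64 genes were not matched to all genes by brightness. Limma called 0 of the 64, with 5 higher and 0 lower at an unadjusted p under 0.05, or 7.81% against 3.79% of all genes. Folding and modification genes were higher for 18 of 19 members (median 0.11), led by the collagen chaperone Serpinh1 (0.27, SE 0.08, limma adjusted p 0.912) and the lysyl hydroxylase Plod2 (0.34, SE 0.14, limma adjusted p 0.912). Serpinh1 was 9.57, 9.48, 9.75 and 9.35 in ST2FL samples 1 to 4, against 9.27, 9.20, 9.33 and 9.25 in ST2WT samples, with no overlap, as for 1.14% of all genes with ST2FL higher. As for the median of the bright collagen genes, though not for each of them, ST2FL sample 4 was the lowest ST2FL sample for Serpinh1 and for the list. The list had a mean of -0.17 there against 0.12 to 0.17 in ST2FL samples 1 to 3 and -0.11 to -0.03 in ST2WT samples.

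Genes of propeptide cleavage and crosslinking were higher for 8.0 of 11.0 tested members, led by the lysyl oxidase relative Loxl3 (0.13, SE 0.09) and the cleavage enhancer Pcolce (0.11, SE 0.09). Collagen receptor genes were higher for 8 of 11, led by the inhibitory receptor Lair1 (0.14, SE 0.08) and the integrin chain Itga1 (0.11, SE 0.06). Breakdown genes and their inhibitors were higher for 7 of 10, led by the metalloproteinase inhibitors Timp1 (0.48, SE 0.31) and Timp3 (-0.10, SE 0.11). Transforming growth factor beta is the main signal for collagen synthesis, and its genes were higher for 10 of 13. They were led by the ligand Tgfb1 (0.18, SE 0.05, limma adjusted p 0.912), at 9.13, 9.17, 9.16 and 9.14 in ST2FL samples 1 to 4 against 8.91, 8.98, 9.04 and 8.94 in ST2WT samples, and by its target Ccn2 (0.21, SE 0.08, limma adjusted p 0.912). Tgfb1 was also among the 1.14% of all genes that did not overlap with ST2FL higher.

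Markers of the remaining cell types gave the following values. Macrophage markers, measured for 9 of 9 genes, were higher in ST2FL for 9 of 9, led by Cd14 (0.24, SE 0.09) and Cd68 (0.20, SE 0.11). Their centred mean was 0.36, 0.39, 0.06 and -0.39 in ST2FL samples 1 to 4 and -0.15 to -1e-04 in ST2WT samples, and their summed log2 level was 13.26 to 13.94 in ST2FL and 13.39 to 13.70 in ST2WT. Across the ST2FL samples this order, with samples 1 and 2 high and sample 4 low, is the reverse of that of the 31 dimmer collagen genes, and its part in their values was not tested. In centred means the order was not particular to macrophage markers. ST2FL sample 4 was also below samples 1 and 2 for the 5 lists above and for fibro-adipogenic progenitor, tendon, endothelial and pericyte and smooth muscle markers. It was above both for keratinocyte, cartilage and bone, Schwann cell and muscle fibre markers. Pericyte and smooth muscle markers were higher for 5 of 7, led by Acta2 (0.15, SE 0.10) and Cspg4 (0.07, SE 0.06). Their summed log2 levels were 14.03 to 14.15 in ST2FL and 13.98 to 14.02 in ST2WT. The brightest member was Des, at 13.03 to 13.17 in ST2FL and 13.05 to 13.11 in ST2WT. Muscle fibres also express Des, so these sums are not particular to pericytes and smooth muscle. Endothelial markers were higher for 7 of 8, led by Cdh5 (0.14, SE 0.07) and Esam (0.12, SE 0.07). Muscle fibre markers were higher for 2 of 8, led by Actn3 (-0.07, SE 0.06) and Myh2 (0.18, SE 0.23).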

How the data were processed

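RNA of 8 whole-muscle samples was labelled with biotin and hybridised to Affymetrix arrays. The authors deposited 1 table of intensity values on a linear scale, from 5.81 to 19080, made with RMA in Affymetrix Power Tools per the submitters' processing notes. RMA corrects background and is meant to make the arrays' distributions alike. It compresses changes of dim probesets and hides a shift shared by most genes. The deposited distributions still differed between arrays. For example, quantile normalization moved Col10a1 from 6.45 to 6.56 in ST2FL sample 1 and from 6.83 to 6.75 in ST2FL sample 4. Software versions and the genome build were not stated in the sources used here, nor was any step between RMA and the linear values.

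Log2 was taken with no pseudocount. Of 24922 rows, 21425 had 1 gene symbol in the platform annotation, 1399 several and 2098 none; only the first were named. Rows whose mean log2 value lay below the 25th percentile (6.35) were left out, and the brightest row per gene was kept, leaving 15007 genes. The genotypes were set against each other by limma 3.58.1 (R 4.3.3; group alone, empirical Bayes), with Benjamini-Hochberg adjustment over all genes and a threshold of 0.05. Differences are ST2FL minus ST2WT. The fit was tested on simulated data with noise independent between samples and changes larger than any collagen difference here. That test does not bear on differences as small as those reported. The number of arrays limits the precision. No array shared more than 14 values with another.

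The collagen genes, their classes and the other gene lists were chosen with earlier results of these data known. Per-sample values are given for Col1a1, Col3a1 and Col15a1, for the 3 genes of each class with the smallest unadjusted p and for tested genes whose groups did not overlap; Col12a1 and Col14a1 were added after their values were seen. From each other list, the 2 tested genes with the smallest unadjusted p are named. Of 145 list entries, 134 had a row and 124 were tested. Protein sequences were not used here. Alternatives were other filters, normalizations, pseudocount, rows per gene, prior, a replicate block, and each array left out.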

Additional observations from a re-analysis of the deposited data

Results flagged for a closer look

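Within a group of 4 samples, 1 sample was far from the other 3 for the following values, by Dixon's test, which picks about 1 group in 20 by chance; 11 of 136 groups were picked out, and 5 of 88 among single collagen genes. Col1a1 was 12.78 in ST2FL sample 3, against 12.51 to 12.55 in the other ST2FL samples. Col23a1 was 8.19 in ST2FL sample 1, against 8.33 to 8.34. ST2WT sample 2 stood apart for Col5a3 at 8.58, against 8.46 to 8.48 in the other ST2WT samples, for Col22a1 at 7.90, against 8.02 in each of the others, and for Col28a1 at 7.16, against 6.93 to 6.96.

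Among means centred per gene, the microfibrillar collagen genes were at 0.11 in ST2FL sample 3, against -0.03 to -0.02 in the other ST2FL samples. ST2FL sample 4 stood apart for folding and modification genes at -0.17 (others 0.12 to 0.17), collagen receptor genes at -0.10 (others 0.06 to 0.08) and Schwann cell markers at 0.075 (others -0.09 to -0.07). ST2WT sample 2 stood apart for propeptide cleavage and crosslinking genes at 0.036 (others -0.07 to -0.05), and ST2WT sample 4 for keratinocyte markers at 1.08 (others -0.16 to -0.09).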

How the results depend on the processing

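Limma called 0 collagen genes under every alternative tried, and 1 had an unadjusted p under 0.05 under each of them that kept all 8 arrays. Leaving out 1 array at a time, genes called over all genes ranged from 0 to 2, with the 2 reached without ST2FL sample 4, where 20.1% of genes had an unadjusted p under 0.05, against 3.79% with all arrays. Collagen genes with a higher mean in ST2FL ranged from 16 to 21. The mean shift of all collagen genes was -0.02 and ranged from -0.04 (without ST2FL sample 3) to 0.01 (without ST2FL sample 1). That of fibrillar genes was 0.03 and ranged from -0.0024 to 0.06, of basement membrane genes -0.04 (-0.08 to -0.0043), of microfibrillar genes 0.02 (-0.01 to 0.04) and of fibril-associated genes -0.05 (-0.09 to -0.02). With the filter at the 50th percentile, 32 collagen genes were tested. Over the members that passed, the shift was 0.045 for basement membrane genes, 0.011 for all collagen genes and 0.074 for microfibrillar genes, and with the mean of the rows per gene the microfibrillar shift was 0.046. Col6a5 differed by 0.024 with the mean of its rows. Leaving out a single array turned the direction of 11 of the 44 collagen genes: Col1a2 (-0.0037 to 0.096), Col6a4 (-0.15 to 0.021), Col6a6 (-0.081 to 0.023), Col8a1 (-0.051 to 0.25), Col11a1 (-0.03 to 0.10), Col14a1 (-0.073 to 0.25), Col16a1 (-0.039 to 0.038), Col24a1 (-0.064 to 0.024), Col25a1 (-0.16 to 0.0017), Col26a1 (-0.086 to 0.034) and Col28a1 (-0.11 to 0.012).

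Same-numbered samples did not deviate together in every pair (correlations across genes of -0.0017, 0.35, 0.25 and 0.04 for numbers 1 to 4), so the numbers were not taken as pairs. With the replicate block, 0 genes were called, 17 collagen genes were higher and 4.62% of genes had an unadjusted p under 0.05. The 4 arrays a group limit the precision to the intervals given.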
